A study of Homo sapiens with 6 samples.

Results

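NRF2, its inhibitor KEAP1 and 7 classic NRF2 target genes were followed in A2780 ovarian carcinoma cells exposed to TH-588, an inhibitor of MTH1, the hydrolase that clears oxidized nucleotides from the nucleotide pool. The 9 genes were chosen by symbol (NFE2L2, KEAP1, HMOX1, NQO1, GCLC, GCLM, TXNRD1, SRXN1 and SLC7A11), matched by Ensembl identifier to rows of a table of 58336 genes. RNA-seq counts were available for 3 libraries of DMSO vehicle and 3 libraries of 6 µM TH-588 given for 48 h, replicates A, B and C of each, all from the same line, with no other agent named. The submitters describe the replicates as independent experiments, and no label ties a letter of one treatment to the same letter of the other. All 9 genes passed the filter on low counts, which kept 15844 genes.

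NRF2, encoded by NFE2L2, is a basic leucine zipper transcription factor that heterodimerizes with small MAF proteins and binds antioxidant response elements near genes of glutathione synthesis, thioredoxin recycling, quinone reduction and haem breakdown. In unstressed cells KEAP1 links NRF2 to a CUL3-RBX1 ubiquitin ligase, and oxidants or electrophiles that modify KEAP1 cysteines let NRF2 accumulate. This control acts largely on the protein, which RNA counts do not measure. HMOX1 has a further brake, the haem-sensitive repressor BACH1, and SLC7A11 also responds to ATF4.

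Depth was 83144642 to 98176722 counts in the DMSO libraries and 28537837, 99074175 and 77634048 counts in TH-588 replicates A, B and C. TH-588 replicate A was the shallowest, and SNORD3A, a small nucleolar RNA, made up 21.9% of it, against 7.68% to 12.95% elsewhere. Values are given as CPM, counts scaled to a common library size, with sizes adjusted by the trimmed mean of M-values (TMM). NUDT1, which encodes MTH1, was at 16.2 ± 1.56 CPM with DMSO and 9.60 ± 0.945 CPM with TH-588 (SD, n = 3 each), a fall in RNA (adjusted p = 0.000232, edgeR) that does not measure inhibition of the enzyme. Of 8 markers listed for an ovarian carcinoma line, most were absent or barely detected: PAX8, WT1 and KRT7 stayed at or below 0.0848 CPM in every library, KRT8 at or below 0.262 CPM and MUC16 at or below 0.180 CPM. KRT8 and MUC16 did not pass the filter on low counts, but were higher in every TH-588 library than in any DMSO library. KRT18 was at 3.14 to 6.995 CPM and EPCAM at 0.497 to 4.96 CPM, both higher with TH-588, and vimentin (VIM) was at 3329 to 4048 CPM. Of 7 markers of other cell types, CD3E and HBB were at 0 and the summed level of all 7 was 4.60 to 6.55 CPM with DMSO and 7.14 to 8.98 CPM with TH-588, most of it from the collagens COL1A1 and COL1A2. COL1A2 and the scarce CD14 were higher with TH-588 (adjusted p = 0.00012 and 0.00393, edgeR), and COL1A1 was not (adjusted p = 0.977). The part of these marker levels in the results was not tested.

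The 9 genes did not move as a unit. HMOX1 rose almost 4-fold, GCLM fell to under 0.5 of its DMSO level, NFE2L2, KEAP1, GCLC and TXNRD1 fell by a smaller amount, and NQO1, SRXN1 and SLC7A11 did not pass the test. The test is edgeR's quasi-likelihood test with Benjamini-Hochberg adjustment over all 15844 genes, with an adjusted p under 0.05 as the threshold for a call. RNA came from whole cultures, so fewer cells of a kind and less RNA per cell cannot be told apart. Under that rule 1 of the 9 genes was higher, where 24.2% of all tested genes were higher, and 5 were lower, where 25.3% of all tested genes were lower. Calls in either direction numbered 6 of 9, against 49.6% of all tested genes. The median log2 fold change of the 9 was -0.30, against 0.02 over all tested genes. Of all calls 48.9% were higher, and 60.4% with library size only as the scaling.

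**Figure D1:**
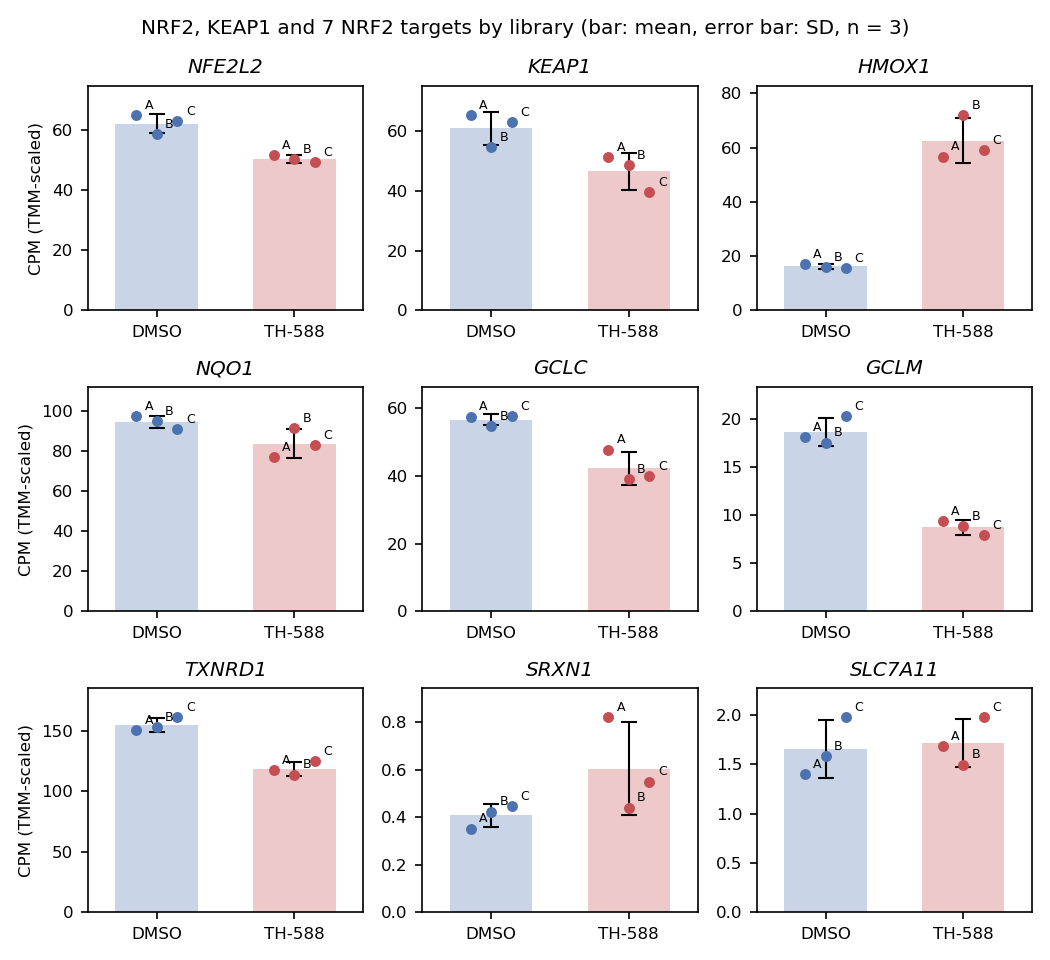
CPM on linear axes from 0 for each of the 9 genes, with 3 DMSO libraries in blue and 3 TH-588 libraries in red, lettered by replicate (bar, mean; error bar, SD). HMOX1 is above every DMSO value in all 3 TH-588 libraries, GCLM is below every DMSO value, and NQO1, SRXN1 and SLC7A11 overlap between the groups.

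NFE2L2 (ENSG00000116044) lies on the minus strand of chromosome 2 of GRCh38, from 177227595 to 177392697. It was at 65.0, 58.6 and 63.1 CPM in replicates A, B and C of DMSO and at 51.8, 50.4 and 49.3 CPM in TH-588 replicates A, B and C. All 3 treated libraries lay below all 3 controls. The log2 fold change was -0.30 ± 0.08 (SE), with an adjusted p of 0.00615 in edgeR. The call was lost with library size only, which moved the median of all genes to 0.13 (log2 fold change of NFE2L2 -0.20, adjusted p = 0.122, edgeR). It was also lost without DMSO replicate A (adjusted p = 0.0503, edgeR) or C (0.053). Exons of other genes cover 20.9% of the exon bases of NFE2L2, those of AGPS on the opposite strand among them, and AGPS fell too (log2 fold change -0.47). The part of this overlap in the value was not tested.

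KEAP1 (ENSG00000079999), the adaptor that marks NRF2 for destruction, lies on the minus strand of chromosome 19 from 10486120 to 10503741 and shares no exon base with another gene. It was at 65.4, 54.7 and 63.0 CPM with DMSO and at 51.5, 48.7 and 39.7 CPM with TH-588 (replicates A, B and C). The groups did not overlap, and TH-588 replicate C was the lowest library. The log2 fold change was -0.39 ± 0.11 (SE), with an adjusted p of 0.00927 in edgeR. With library size only it was -0.29 with an adjusted p of 0.0606, and the call was also lost without DMSO replicate C (adjusted p = 0.0502) or TH-588 replicate C (0.0608).

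The balance between the factor and its inhibitor did not differ beyond the spread of the libraries. The ratio of NFE2L2 to KEAP1 counts per kb within a library, which does not depend on how libraries are scaled, was 0.625, 0.674 and 0.630 with DMSO and 0.632, 0.651 and 0.783 with TH-588. The ranges overlapped, and the mean log2 ratio differed by 0.09 (exact two-sided permutation test over libraries, p = 0.5). Over the 5 ratios compared, adjusted values of the exact test were 0.125 for 4 of them and 0.5 for this one. With 3 libraries against 3 the exact test cannot go below p = 0.1.

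HMOX1 (ENSG00000100292) encodes the inducible haem oxygenase, which opens haem to biliverdin, iron and carbon monoxide. It lies on the plus strand of chromosome 22 from 35380361 to 35394214, with no exon base shared with another gene. It was at 17.2, 16.1 and 15.5 CPM in replicates A, B and C of DMSO and at 56.7, 71.95 and 59.1 CPM in TH-588 replicates A, B and C. Even the lowest treated library was above 3 times the highest control. The fold change was 3.86, a log2 fold change of 1.95 ± 0.10 (SE), with an adjusted p of 5.98e-08 in edgeR, which placed it 457th from the top among the 15844 tested genes. It stayed between 1.83 and 2.02 with each library left out in turn, and was 2.02 without the shallow TH-588 replicate A.

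Its constitutive relative HMOX2, which carries out the same reaction, was at 33.7, 30.3 and 28.1 CPM with DMSO and at 22.1, 28.5 and 26.7 CPM with TH-588. The groups overlapped, and the log2 fold change of -0.25 did not pass the threshold (adjusted p = 0.0788, edgeR). Within a library the ratio of HMOX1 to HMOX2 counts per kb was 0.802 to 0.869 with DMSO and 3.49 to 4.05 with TH-588, a difference of 2.197 on the log2 scale (exact two-sided permutation test, p = 0.1, the smallest possible). The inducible form was thus the less abundant of the pair per length in every control library and the more abundant in every treated library.

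The DNA before the HMOX1 start is shown because HMOX1 held more exact copies of TGACTCAGC there than the other 8 genes did before their deposited starts. The exact element TGACTCAGC, a form of the antioxidant response element that also contains the AP-1 element TGACTCA, was searched on both strands in the 10 kb before the start of each tested gene, as the deposited table gives that start. HMOX1 had 4 copies, NQO1 had 1 and the other 7 genes had 0. The deposited starts of NFE2L2 and GCLC (177392697 and 53616970) lie far upstream of their RefSeq promoter windows, which reach 177264977 and 53545351. For these genes the 10 kb before the RefSeq starts was not searched, nor was that before the downstream RefSeq start of TXNRD1. The 0 of NFE2L2, GCLC and TXNRD1 thus applies to the deposited start only. Of all 15844 tested genes 12.7% had at least 1 copy, 1.11% at least 2 and 0.0126% (2 genes, HMOX1 included) at least 4. Of the companion genes, PRDX1 and PGAM5 had 2 copies and fell. FTL, FTH1, FECH and GSTA4 had 1 and rose, and TALDO1 had 1 and fell. ME1, NFE2L3, BLVRA, ABCC1, ABCC2 and BACH1 had 1 and were not called. BLVRB, MAFF, SQSTM1 and TRIM16L were among those with 0 that rose. Other forms of the element were not counted here, and any link of copy number to change was not tested. The windows below are read 5′ to 3′ on the minus strand of the GRCh38 genome, with the element in capitals.
HMOX1, 3205 bases before the start, chr22:35377146-35377174: gaggcactggTGACTCAGCaaaatctagc
HMOX1, 8255 bases before the start, chr22:35372096-35372124: ctctagaccgTGACTCAGCgaaaacagac
HMOX1, 8284 bases before the start, chr22:35372067-35372095: accgggaccgTGACTCAGCgaaaacagat
HMOX1, 8342 bases before the start, chr22:35372009-35372037: ctcgggaccgTGACTCAGCaggaaaaaca
NQO1, 64 bases before the start, chr16:69726997-69727025: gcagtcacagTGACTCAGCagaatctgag
The 3 distal HMOX1 copies lie within 87 bases of each other, and 24 of the 29 bases are identical between the windows at 8255 and 8284 bases. A match to these letters is a description of the sequence, and binding at these places was not measured here.

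**Figure D2:**
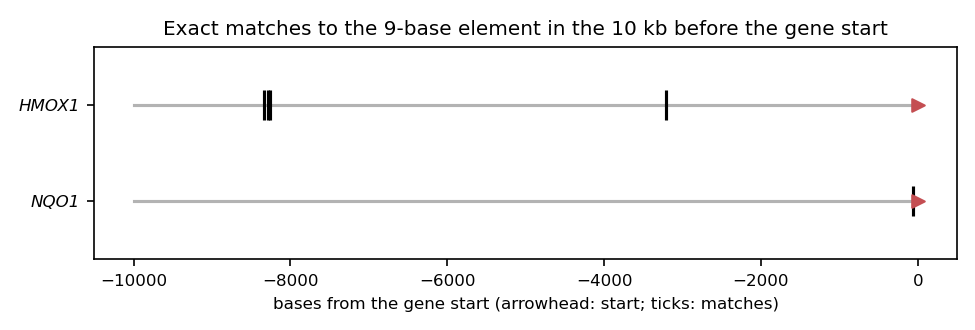
Horizontal axis, distance in bases from the gene start in the deposited table (arrowhead); vertical ticks, exact copies of the element on either strand in the 10 kb before the start. HMOX1 has 4 copies, of which 3 lie together between 8255 and 8342 bases, and NQO1 has 1 copy 64 bases before its start.

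NQO1 (ENSG00000181019), a quinone reductase widely read as a marker of NRF2 activity, did not pass the test. It lies on the minus strand of chromosome 16 from 69706996 to 69726951 and was at 97.4, 94.9 and 91.2 CPM with DMSO and at 77.0, 91.4 and 82.9 CPM with TH-588 (replicates A, B and C). TH-588 replicate B lay just above DMSO replicate C, so the groups overlapped. The log2 fold change was -0.17 (95% confidence interval -0.35 to 0.01, adjusted p = 0.107, edgeR), an interval that holds a modest fall and no rise of the kind seen for HMOX1. Without TH-588 replicate B it passed the threshold as lower (log2 fold change -0.24, adjusted p = 0.045). Within a library, HMOX1 counts per kb were 0.229 to 0.238 of those of NQO1 with DMSO and 0.965 to 1.07 of them with TH-588, a difference of 2.12 on the log2 scale (exact two-sided permutation test, p = 0.1). An antisense gene model of 575 bases lies wholly within NQO1 exons, covers 17.7% of their bases and had 0 counts in every library. The libraries do not mark strand, so these 0 counts do not show that NQO1 was counted in full there. The part of this overlap in the level of NQO1 and in its ratio to HMOX1 was not tested.

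**Figure D3:**
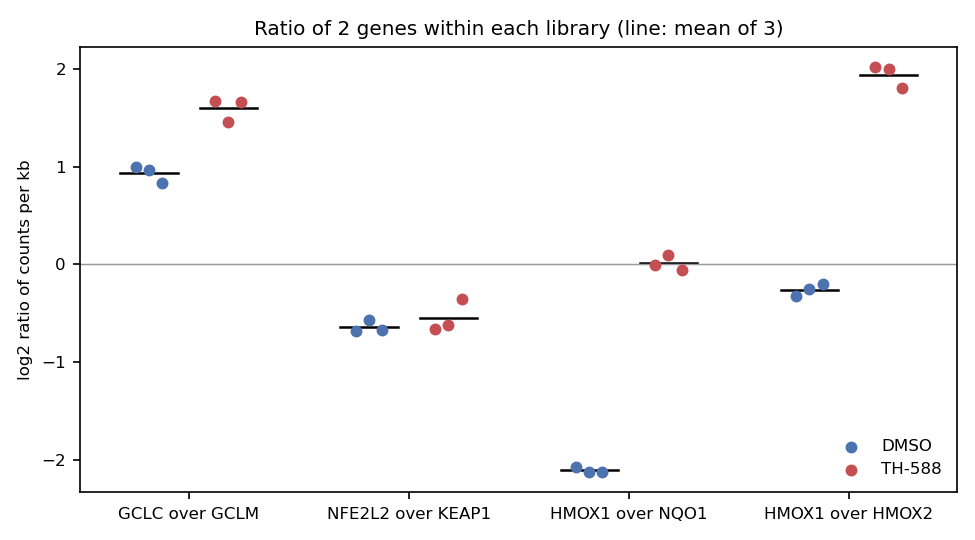
Vertical axis, log2 ratio of counts per kb of 2 genes within 1 library, for 3 DMSO libraries (blue) and 3 TH-588 libraries (red), with the mean as a line. The ratios of HMOX1 to NQO1 and to HMOX2 are more than 2 log2 units higher in the treated libraries, GCLC over GCLM is 0.67 higher, and NFE2L2 over KEAP1 overlaps.

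GCLC and GCLM encode the catalytic and modifier subunits of glutamate-cysteine ligase, the rate-limiting enzyme of glutathione synthesis, and both fell, the modifier by more. GCLM (ENSG00000023909, chromosome 1, minus strand, 93885205 to 93909456) was at 18.1, 17.5 and 20.3 CPM in replicates A, B and C of DMSO and at 9.38, 8.89 and 7.91 CPM in TH-588 replicates A, B and C. The groups were far apart relative to their spread. The log2 fold change was -1.10 ± 0.11 (SE), with an adjusted p of 7.9e-06 in edgeR, the largest fall of the 9 genes and the 657th among all tested genes, and it stayed between -1.15 and -1.01 with each library left out. GCLC (ENSG00000001084, chromosome 6, minus strand, 53497341 to 53616970) was at 57.5, 54.7 and 57.6 CPM with DMSO and at 47.8, 39.0 and 39.9 CPM with TH-588. Its groups did not overlap either, and its log2 fold change was -0.43 ± 0.09 (SE), with an adjusted p of 0.002 in edgeR. The within-library ratio of GCLC to GCLM per kb was 1.99, 1.96 and 1.78 with DMSO and 3.19, 2.75 and 3.16 with TH-588. Every treated library thus had more catalytic subunit RNA per modifier subunit RNA than every control, a difference of 0.67 on the log2 scale (exact two-sided permutation test, p = 0.1).

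SLC7A11 (ENSG00000151012, chromosome 4, minus strand, 138164097 to 138242349) encodes the transport subunit of the cystine importer that feeds glutathione synthesis. It was at 1.399, 1.59 and 1.98 CPM with DMSO and at 1.68, 1.498 and 1.98 CPM with TH-588, and the ranges of the 2 groups overlapped almost entirely. Its log2 fold change was 0.05 with a 95% confidence interval of -0.41 to 0.51 (adjusted p = 0.854, edgeR). SLC3A2, the heavy chain that brings this and other amino acid transporters to the membrane, was far more abundant and fell from 92.5 ± 1.76 to 55.1 ± 7.18 CPM (SD, n = 3 each).

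TXNRD1 (ENSG00000198431, chromosome 12, plus strand, 104215779 to 104350305) encodes cytosolic thioredoxin reductase, which returns electrons from NADPH to thioredoxin. It was at 150.9, 152.9 and 161.3 CPM with DMSO and at 117.5, 113.9 and 125.1 CPM with TH-588. The groups did not overlap, and the log2 fold change was -0.38 ± 0.08 (SE), with an adjusted p of 0.00123 in edgeR. Thioredoxin itself (TXN) also fell, from 217.2 ± 13.1 to 128.5 ± 8.88 CPM, and the peroxiredoxin PRDX1, which uses thioredoxin to reduce peroxide, fell from 321.3 ± 14.7 to 246.0 ± 10.8 CPM (SD, n = 3 each).

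SRXN1 (ENSG00000271303, chromosome 20, minus strand, 646615 to 653370) encodes sulfiredoxin, which repairs overoxidized peroxiredoxins. It was at 0.353, 0.424 and 0.448 CPM with DMSO and at 0.822, 0.441 and 0.551 CPM with TH-588, from 22 to 48 counts a library. The highest value was that of the shallowest library, TH-588 replicate A, and the groups overlapped. The log2 fold change was 0.50 with a 95% confidence interval of -0.28 to 1.28 (adjusted p = 0.271, edgeR), and it was 0.29 without TH-588 replicate A. Another gene model on the same strand, ENSG00000270299, covers 85.0% of the exon bases of SRXN1 and had 0 counts in all 6 libraries. How reads in exons shared by several genes were counted is not given in the sources used here. If such reads were left out, SRXN1 was undercounted, so its level is uncertain. The part of this overlap in the low count was not tested. The ratio of TXNRD1 to SRXN1, which was 0.91 lower on the log2 scale with TH-588, carries the same uncertainty.

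Levels were compared between genes per kb of exon length. In the DMSO libraries the order was NQO1 at 29.03 CPM per kb, TXNRD1 at 23.1, KEAP1 at 16.2, NFE2L2 at 10.4, HMOX1 at 6.75, GCLC at 6.54, GCLM at 3.44, SLC7A11 at 0.172 and SRXN1 at 0.151 CPM per kb. Neighbours in this order were apart in every library except HMOX1 and GCLC, and SLC7A11 and SRXN1, whose ranges overlapped. In the TH-588 libraries HMOX1 moved from the fifth place to the top at 26.0 ± 3.41 CPM per kb, where it overlapped NQO1 at 25.7 ± 2.22 CPM per kb (SD, n = 3 each). The order of the next 5, TXNRD1, KEAP1, NFE2L2, GCLC and GCLM, was the same in both treatments. SRXN1 and SLC7A11 remained lowest and overlapped again. The length used is that of all exons of a gene in the deposited table, so the order depends on those gene models. Exon bases shared with other genes (85.0% for SRXN1, 20.9% for NFE2L2 and 17.7% for NQO1) leave these levels uncertain.

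**Figure D4:**
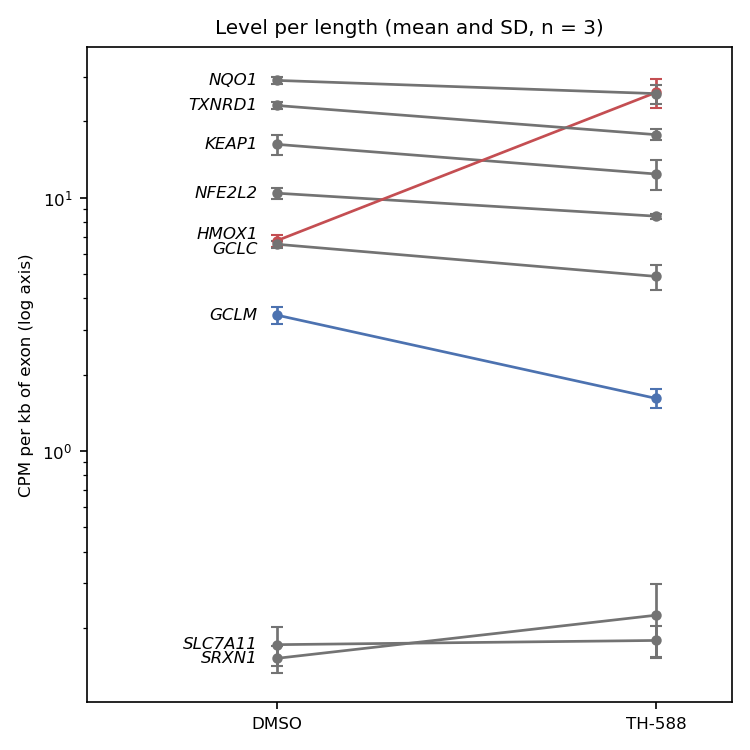
Vertical log axis, CPM per kb of exon in DMSO and TH-588 libraries (points, mean of 3; error bars, SD), with lines joining each gene's 2 means. HMOX1 (red) rises from 6.75 to 26.0 CPM per kb to meet NQO1, and GCLM (blue) falls from 3.44 to 1.61 CPM per kb.

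The core antioxidant response element TGACNNNGC was searched in the RefSeq promoter windows, which run from 250 bases before to 50 bases after a start on GRCh38.p14. Of the 9 genes 7 had such a window (HMOX1 and SLC7A11 did not), and KEAP1, GCLM and TXNRD1 held at least 1 match on either strand, as did 19.1% of 11119 tested genes with a window and 13.3% of all 35116 promoter windows. All 3 genes fell. Of the genes whose windows held no match, NFE2L2 and GCLC fell, and NQO1 and SRXN1 were not called. None of the 7 held the AP-1 element TGACTCA, which 4.95% of windows hold. The NQO1 window follows a RefSeq start 391 bases downstream of the start in the deposited table, so it does not reach the copy of TGACTCAGC shown above. Over the tested genes with a window, the median log2 fold change was -0.01 with the core match and -0.01 without it. The windows of GCLM and KEAP1 are shown because the same 9 letters stand shortly before a RefSeq start of each, read on the plus strand, with the matched letters in capitals. The TXNRD1 windows show its 3 differing matches, before its 2 RefSeq starts, and a second match in KEAP1 is not shown.
GCLM, 34 bases before the RefSeq start, chr1:93909446-93909474, plus strand: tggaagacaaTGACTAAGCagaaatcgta
KEAP1, 31 bases before the downstream of its 2 RefSeq starts, chr19:10502784-10502812, plus strand: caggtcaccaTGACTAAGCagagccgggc
TXNRD1, 99 bases before the upstream start, chr12:104215670-104215698, plus strand: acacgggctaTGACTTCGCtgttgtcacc
TXNRD1, 8 bases before the upstream start, chr12:104215761-104215789, minus strand: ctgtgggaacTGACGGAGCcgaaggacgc
TXNRD1, 102 bases before the downstream start, chr12:104286920-104286948, minus strand: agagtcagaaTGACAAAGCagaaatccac

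RNAs of the proteins that control NRF2 were called in both directions. Of 17 listed regulators and partners 16 were tested. Of these 8 were higher and 4 were lower, where 24.2% and 25.3% of all tested genes were, and the median log2 fold change was 0.22. SQSTM1, the autophagy receptor that competes with NRF2 for KEAP1 and is itself an NRF2 target, rose from 53.7 ± 3.06 to 102.0 ± 10.6 CPM (SD, n = 3 each). This is 0.93 on the log2 scale, with an adjusted p of 5.89e-06 in edgeR. Exons of MGAT4B and MRNIP overlap part of its exon bases. RBX1, the RING subunit of the KEAP1 ligase, fell by 0.38 on the log2 scale, and CUL3, its scaffold, by 0.25. The CUL3 call was lost in 6 of 14 alternatives, among them library size only and the fits without DMSO replicate A or C or without TH-588 replicate B or C. GSK3B, a kinase that marks NRF2 for a ligase other than that of KEAP1, rose (log2 fold change 0.46, adjusted p = 0.000481, edgeR). BTRC and FBXW11, adaptors of that ligase, were at 0.22 and 0.21 on the log2 scale with adjusted p of 0.0488 and 0.0476 in edgeR. Both lost their call when DMSO replicate A, B or C or TH-588 replicate A was left out, and in 11 and 10 of 14 alternatives in all. PGAM5, a mitochondrial phosphatase bound by KEAP1, and DPP3, a peptidase that also binds KEAP1, fell, with log2 fold changes of -0.58 and -0.40. DPP3 was not called with library size only (adjusted p = 0.132, edgeR).

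Small MAF partners were scarce. MAFK was at 1.37 ± 0.223 CPM with DMSO and 2.32 ± 0.392 CPM with TH-588 (SD, n = 3 each). Its log2 fold change of 0.76 was not called without TH-588 replicate B (adjusted p = 0.0622, edgeR). MAFF, named after its values were seen, was at 0.572, 0.351 and 0.246 CPM with DMSO and at 1.57, 1.54 and 1.45 CPM with TH-588, a log2 fold change of 1.96 (adjusted p = 0.000241, edgeR). MAFG was not called, at 0.633, 0.0727 and 0.331 CPM with DMSO and 0.336, 0.634 and 0.491 CPM with TH-588, from 6 to 69 counts a library. The relative NFE2, best known from blood cells, rose from 0.682 ± 0.206 to 1.47 ± 0.271 CPM (SD, n = 3 each). BACH1, the repressor of HMOX1, was at 24.3 ± 1.71 CPM with DMSO and 23.1 ± 2.53 CPM with TH-588, and its log2 fold change was -0.07 with a 95% confidence interval of -0.29 to 0.16 (adjusted p = 0.607, edgeR). The NRF2 relatives NFE2L1 and NFE2L3 were at log2 fold changes of -0.01 and 0.00, and neither passed the threshold.

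Around HMOX1, 8 of 9 genes of the haem and iron list were tested. By edgeR's test 4 were higher (BLVRB, FTL, FTH1 and FECH), where 24.2% of all tested genes were, and 0 were lower, where 25.3% were. The median log2 fold change was 0.16, and the call of FECH, which inserts iron into haem, was lost in 6 of 14 alternatives. At an unadjusted p under 0.05, 2 were lower (SLC48A1 and HMOX2), and DESeq2 and limma-voom also called 0 lower. BLVRB, a biliverdin and flavin reductase, was at 6.62, 6.29 and 7.35 CPM with DMSO and at 28.5, 19.5 and 18.1 CPM with TH-588, a log2 fold change of 1.69 ± 0.16 (SE), with an adjusted p of 4.35e-06 in edgeR. All 3 treated libraries were above the controls, the shallow replicate A most, and without that library its log2 fold change was 1.49. FTL and FTH1 encode the light and heavy ferritin chains that store the released iron. FTL rose from 179.0 ± 14.8 to 344.2 ± 52.0 CPM and FTH1 from 224.4 ± 6.35 to 285.6 ± 13.4 CPM (SD, n = 3 each). Both have many processed pseudogenes, and exons of BEST1 overlap 62.4% of the exon bases of FTH1, so these 2 values are uncertain. BLVRA, the main biliverdin reductase, was at 43.2 ± 2.49 and 41.0 ± 1.304 CPM and did not pass the threshold.

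In the list of glutathione and thioredoxin enzymes, 19 of 21 genes were tested, 4 were higher and 8 were lower, where 24.2% and 25.3% of all tested genes were, and the median log2 fold change was 0.03. The largest falls were those of TXN (-0.76), SLC3A2 (-0.74) and ABCC4 (-0.70), a transporter of organic anions. GSR, glutathione reductase, was also lower (-0.43). GSS, which adds glycine in the last step of glutathione synthesis, rose (0.30), the opposite direction to GCLC and GCLM, which form the enzyme of the first step. The transferases GSTM3 and GSTA4 rose as well, with log2 fold changes of 0.90 and 0.56, the former from 0.709 CPM only.

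The next list holds enzymes that make NADPH, the reductant for both systems, and other enzymes of the pentose phosphate pathway. Of 6 tested, 1 was higher and 2 were lower, where 24.2% and 25.3% of all tested genes were, and the median log2 fold change was -0.05. The lactonase PGLS rose (log2 fold change 0.55), and transaldolase (TALDO1) and PGD, which makes NADPH, fell (-0.39 and -0.32). PGD was not called with library size only (adjusted p = 0.101, edgeR).

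Many genes of the quinone, carbonyl and drug metabolism list were barely detected. Of 17 genes, 8 did not reach the filter on low counts, among them AKR1C1, AKR1C2, AKR1C3 and AKR1B10, aldo-keto reductases that are strong NRF2 targets in other epithelial cells. AKR1B10 and AKR1C2 had 0 counts in all 6 libraries, and CBR1 had 1 count in total. With 0 counts, a true level of up to 3 counts, or 0.0276 to 0.112 CPM depending on the library, cannot be told from none. Of the 9 tested, 2 were higher and 1 was lower, where 24.2% and 25.3% of all tested genes were. TRIM16L rose from 4.12 ± 0.377 to 9.0 ± 0.740 CPM (SD, n = 3 each) and TRIM16 from 4.07 ± 0.227 to 5.17 ± 0.0423 CPM, although these are closely related copies that may share reads and the call on TRIM16 was lost under 7 of 14 alternatives. AKR1B1 fell (log2 fold change -0.28, adjusted p = 0.00989, edgeR), but was not called with library size only (adjusted p = 0.153, edgeR), without DMSO replicate A (0.0628) or without TH-588 replicate C (0.0517).

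**Figure D5:**
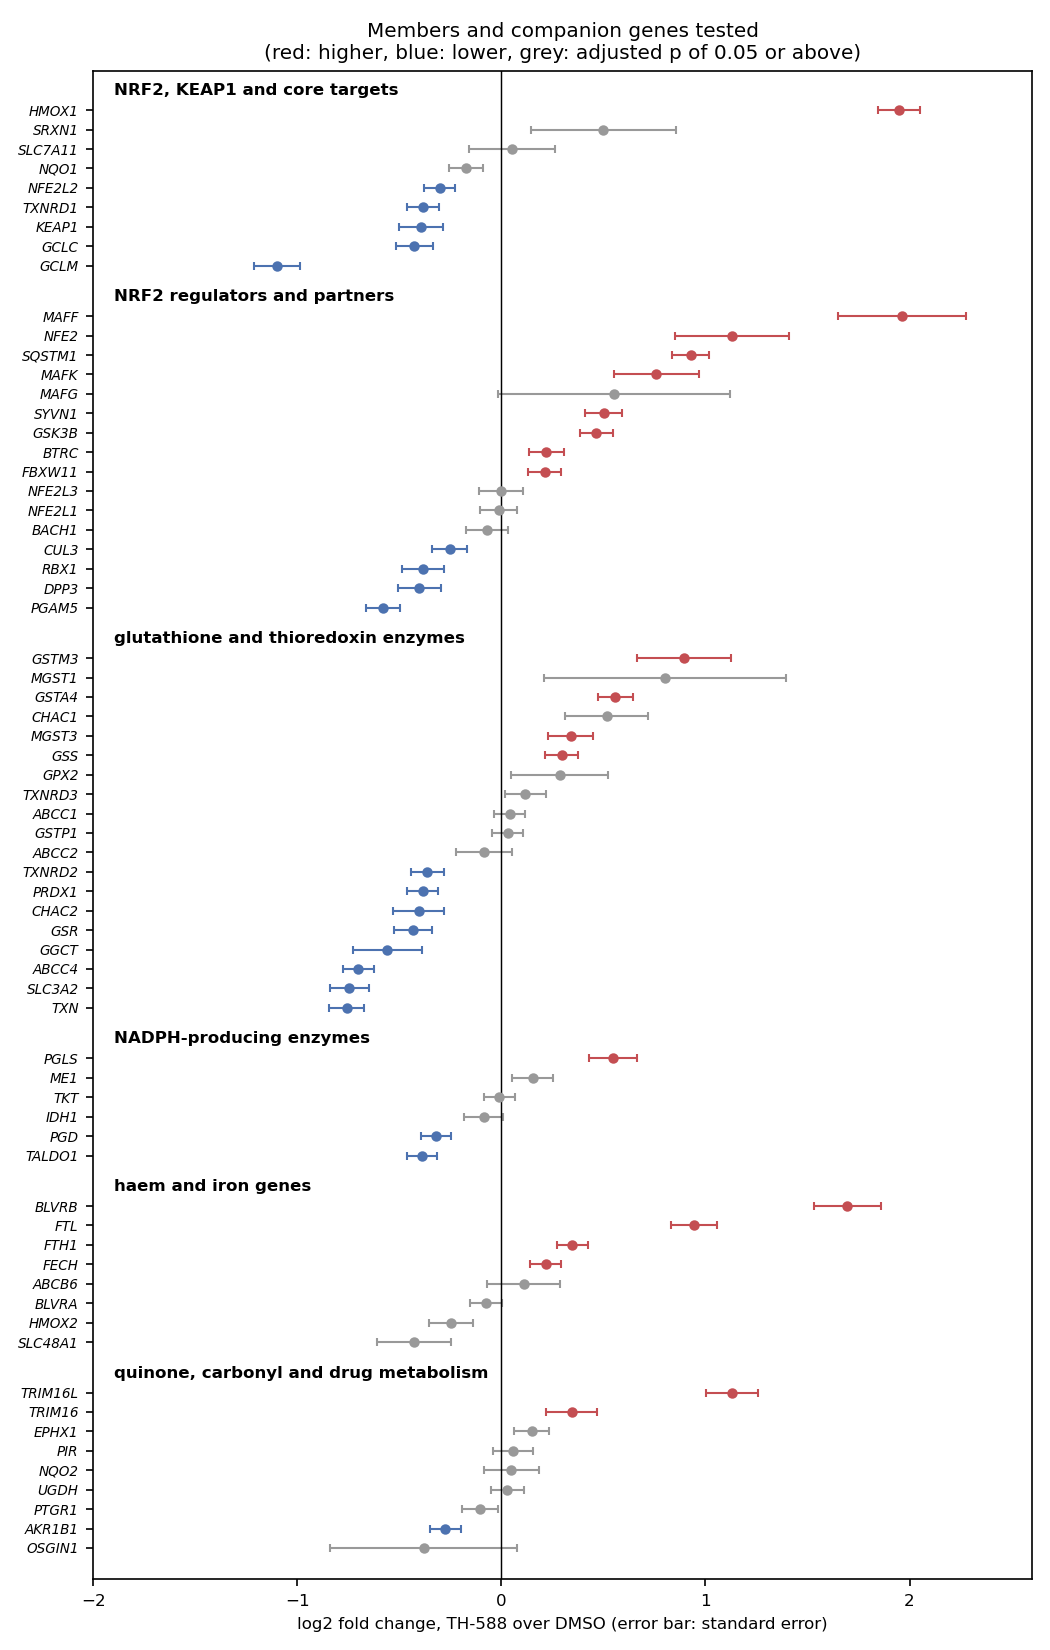
Horizontal axis, log2 fold change of TH-588 over DMSO with its standard error, for the 9 genes and the 58 tested companion genes by list (red, higher; blue, lower; grey, not past an adjusted p of 0.05). HMOX1, MAFF and BLVRB lie farthest right and GCLM farthest left, and members of every list except haem and iron lie on both sides of 0 with calls.

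Profiles of 9762 genes at or above a mean of 2 in log2 CPM were compared as the root mean square difference of mean-centred log2 CPM over the 6 libraries. The closest to HMOX1 were HSD17B14, ICAM5 and ACBD4, at 0.075, 0.083 and 0.094, none of which is on any list here. The closest to GCLM were SLBP, RACGAP1 and ANXA2, at 0.040, 0.042 and 0.043. The closest to NFE2L2 were ZC3H13, CTSV and HLTF, at 0.021, 0.022 and 0.022, and to KEAP1 HARS1, COX17 and COMMD4, at 0.039, 0.041 and 0.041. No member or companion gene was among these, but few of the 9762 genes are on a list, and genes under the cut-off, MAFF among them, could not appear. Profiles were matched over both groups, so like fold changes follow from the rule. The 3 closest to HMOX1 had log2 fold changes of 1.88 to 2.03.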

How the data were processed

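A2780 cells were treated with DMSO or TH-588, and RNA was column-extracted and made into TruSeq v2 libraries, which do not mark strand. The authors aligned reads to GRCh38 with TopHat and counted them per gene with featureCounts 1.4.6 (the submitters' processing notes name both), and the deposited values are raw counts. The methods name UCSC gene models, whereas the identifiers are Ensembl's, of which 57754 of 58336 were matched to a symbol.

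Counts were filtered (filterByExpr), scaled by TMM and tested with edgeR 4.0.16 in R 4.3.3. Standard errors are the log2 fold change over the square root of F. CPM uses the TMM library size. Ratios used counts plus 0.5 per kb. Floors of 3 counts cover counting error only. The procedure was tested on simulated counts.

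The 9 members and the 5 companion lists, written from general knowledge, were chosen with earlier results of these data known. A companion gene left out of its list is not reported here. All members were named, with the 3 largest rises and falls per list among called genes whose groups did not overlap and whose average log2 CPM was 0 or more. Other companions are named for their role. The search for TGACTCAGC was chosen after seeing the data. Alternatives were DESeq2 1.42.0, limma-voom (limma 3.58.1), DESeq2 size factors, library size only, an unfiltered table, a minimum of 10 counts per library, an adjusted p under 0.01, each library left out, the replicate letter as a block and, chosen later, removal of the 10 most abundant genes.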

Additional observations from a re-analysis of the deposited data

How the results depend on the processing

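HMOX1, GCLM, GCLC and TXNRD1 kept their direction and their call in all 14 alternative fits. The number of members called higher was 1 in every alternative, and the number called lower was 3 with library size only and 3 to 6 when a library was left out (3 without DMSO replicate C, where NFE2L2 and KEAP1 were lost). Of the companion genes, 15 were called lower, 8 with library size only and 12 to 16 with a library left out, and 19 were called higher, 14 to 18 with a library left out. Library size only moved the share of all calls that were higher to 60.4%, from 48.9%. Libraries with the same letter did not deviate together (correlations of -0.26, -0.35 and 0.01 for A, B and C), so the letters were not taken as pairs. A fit with the replicate block called 7195 genes, 7129 of them also called without it, and among the members the block changed no call (HMOX1 1.94, GCLM -1.10). Among the companions the block ended the calls of CUL3, BTRC, FBXW11, FECH and TRIM16 (adjusted p = 0.0609, 0.093, 0.105, 0.0878 and 0.0801, edgeR). SLC7A11, never called, turned sign without DMSO replicate A (-0.032) and without TH-588 replicate C (-0.051), within a range up to 0.221. HMOX2 passed the threshold as lower without TH-588 replicate B (-0.33). With the looser core TGANNNNGC, 5 of 7 members had a promoter match instead of 3, against 50.7% of tested genes with a window. The cause of these changes was not tested, other than by the construction of each alternative. Depth limits SRXN1, with 22 to 48 counts in every library, and the other named genes with few counts: MAFF, MAFG, NFE2, GSTM3 and SLC7A11 each had a library under 50 counts.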
